A study of Mus musculus with 15 samples.

Results

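The 48 genes described here carry out DNA replication and the synthesis of its nucleotide precursors. They were taken by name from the 23359 genes of the deposited tables, and all 48 names were found. Expression was measured by RNA-seq in leukemia stem cells (LSC), the cells able to propagate a leukemia, from mice modelling the blast crisis of chronic myeloid leukemia. The leukemic cells of this model carry 2 human oncogenes, BCR-ABL and NUP98-HOXA9, and were transplanted into recipient mice. The 4 LSC groups were collected 12 days after transplantation from the spleen (SPL), the gonadal adipose tissue (AT), the blood (BL) and the bone marrow (BM). The remaining group, NBM, held the normal counterparts of LSC from normal bone marrow. Each group had 3 libraries, 15 in all, from female mice of 3 months. The strain label names the leukemia model for NBM too, while the cell type label calls those cells normal counterparts. The recipients' strain, the sorting gate and the number of mice behind each library were not stated in any source used here, so the spread between libraries may be technical.

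A replication origin is first marked by the origin recognition complex, which with CDC6 and CDT1 loads the ring of MCM2 to MCM7, the core of the replicative helicase, onto DNA before S phase. The kinase CDC7 with its partner DBF4, and CDK2 with cyclin E, then start the helicase together with CDC45 and the GINS complex, and the polymerases, the sliding clamp PCNA and the ligase copy the strands. Ribonucleotide reductase and the other enzymes of nucleotide synthesis supply the building blocks, and many genes of this program are targets of the E2F transcription factors, which switch them on as cells leave quiescence.

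The deposited values were 1 FPKM per gene and group, which is the number of fragments scaled to transcript length and sequencing depth, pooled by the authors over the 3 libraries. FPKM is scaled by transcript length, so levels can be set side by side between genes. The estimated counts behind the FPKM summed to 19471044 in NBM, 16467168 in BM, 8964746 in SPL, 19530657 in BL and 19587970 in AT. Single-library values were not used here, so an error is the authors' bound, 2 standard deviations on either side of an FPKM, or the standard error implied by Cuffdiff's test statistic for a log2 fold change, written after ±. The levels of 5 of the 8 stem and progenitor markers examined lay at an FPKM of 1 or more in every group (Kit, Cd34, Ly6a, Cd48 and Meis1). The adipocyte markers Adipoq, Plin1, Lep, Cfd, Cidec and Retn summed to an FPKM of 0.693 in AT and to between 0.0631 and 0.139 in the other groups.

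DNA replication and nucleotide synthesis transcripts were abundant in NBM, BM and SPL, lower in AT and lowest in BL. The 48 genes took 0.743% of the estimated counts in NBM, 0.591% in BM, 0.657% in SPL, 0.340% in AT and 0.151% in BL. Their median FPKM was 9.64 in NBM, 7.73 in BM, 9.87 in SPL, 3.91 in AT and 2.04 in BL. An FPKM of 1 or more was reached by 47 of the genes in NBM, 44 in BM, 47 in SPL, 38 in AT and 33 in BL. Dut was the member below 1 in every group. BL had the lowest FPKM of the 5 groups for 46 of 48 members, beside 29.27% of the 9630 genes with an FPKM of 1 or more in some group. For the other 2 members, Gins3 and Rfc2, AT was lowest. AT stood second lowest for 44 members, and the order with BL lowest and AT second lowest held for 44 of 48 members, beside 25.07% of the 9630 genes. The highest level was in SPL for 27 members, in NBM for 18 and in BM for 3, and SPL and BM did not differ for any member past the test described next.

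**Figure D1:**
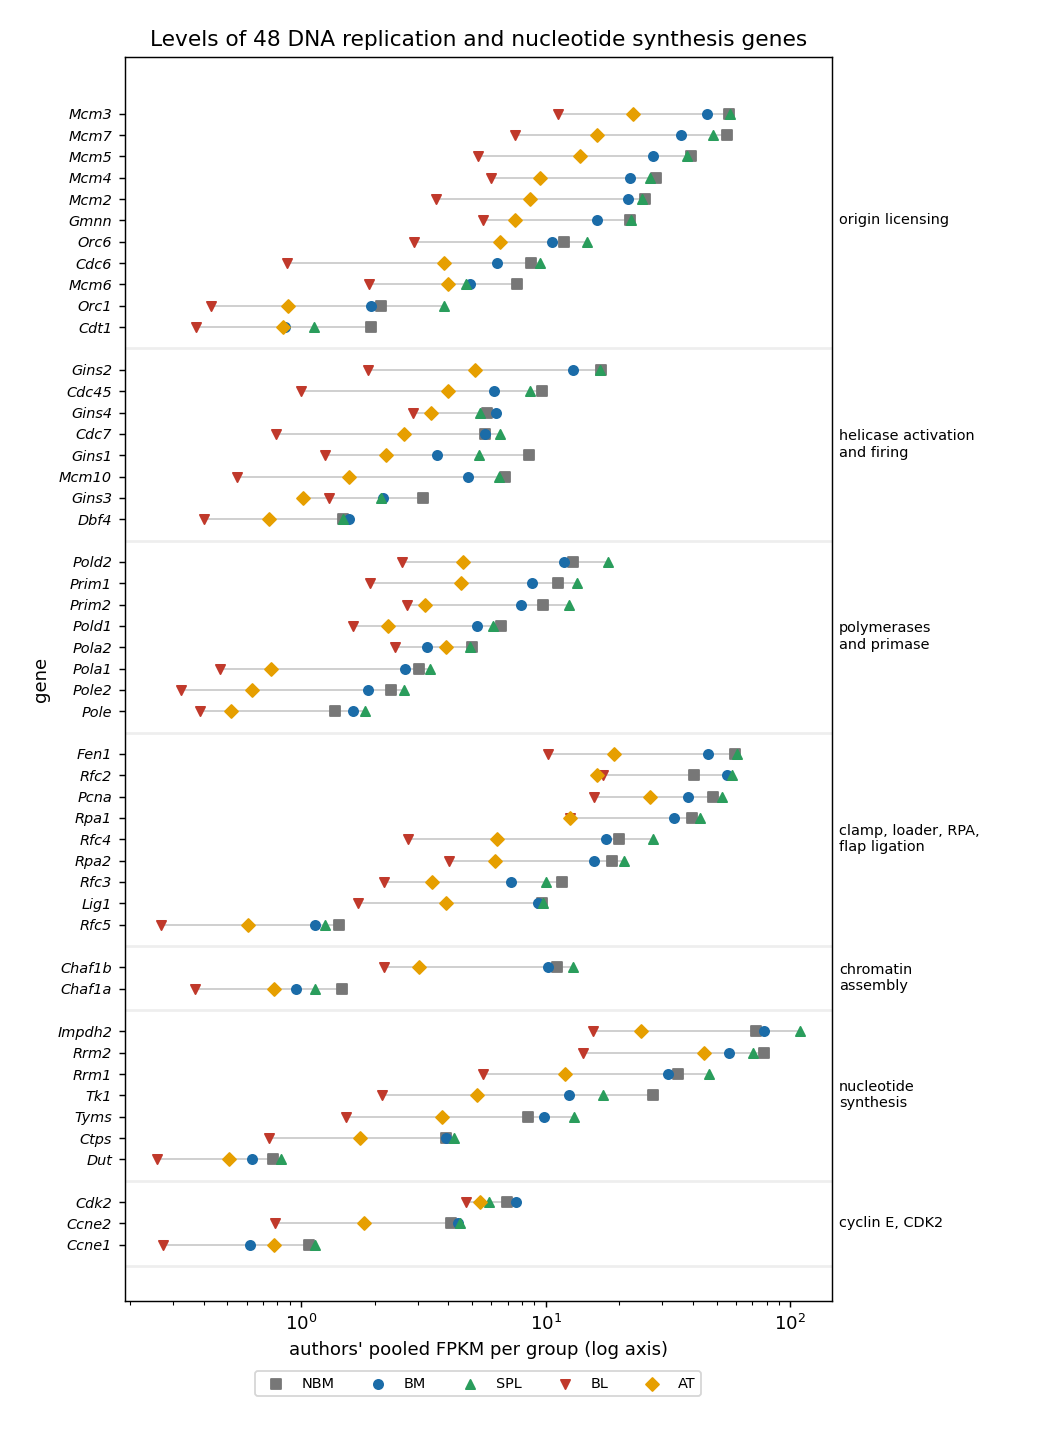
Pooled FPKM (log axis) of each of the 48 genes in the 5 groups, ordered by role and, within a role, by mean level; a grey line joins the lowest and the highest group of a gene. BL (red) is at the left end of 46 of the 48 lines, and AT (orange) is next to it for 44.

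A gene was called in a comparison when the authors' deposited table marked Cuffdiff's test as completed and gave a q-value below 0.05. In the authors' deposited table, 40 of 47 tested members were lower in BL than in BM and 0 were higher, beside 22.8% of 12784 tested genes called lower and 10.5% called higher. The median log2 fold change of the members between BL and BM was -2.07 in the authors' deposited table, against -0.37 for all tested genes. The counts were of the same size against the other 2 groups. BL against SPL gave 43 of 48 members lower and 0 higher in the authors' deposited table, with 23.1% of all tested genes lower and 10.2% higher, and a median of -2.36 for the members and -0.40 for all tested genes. BL against NBM gave 43 of 47 lower and 0 higher in the authors' deposited table, with 22.9% of genes lower and 11.5% higher, and medians of -2.35 and -0.36. These 3 comparisons share the BL libraries, and at an unadjusted p below 0.05 still 0 members were higher in BL in any of them. When each fold was centred on the median of all tested genes, 35 members stayed called lower in BL than in BM (13.5% of all tested genes), 39 lower than in SPL (14.5%) and 40 lower than in NBM (14%). In bulk RNA, fewer cells in S phase and less of each transcript per cell cannot be told apart.

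AT lay between BL and the 3 other groups. In the authors' deposited table, 17 of 47 tested members were lower in AT than in BM and 0 higher, with 15.5% of all tested genes lower and 7.24% higher, and with medians of -1.12 for the members and -0.48 for all tested genes. AT against SPL gave 24 of 48 members lower and 0 higher in the authors' deposited table (17.9% of all tested genes lower, 7.2% higher), with medians of -1.48 and -0.52. AT against NBM gave 27 of 47 members lower and 0 higher in the authors' deposited table (15.5% lower, 7.94% higher), with medians of -1.32 and -0.46. At an unadjusted p below 0.05 these 3 AT comparisons likewise held 0 higher members. Centring on all tested genes reduced the calls to 3 of 47 against BM, where 5.11% of all tested genes were then lower, to 7 of 48 against SPL (6.95%) and to 8 of 47 against NBM (6.56%). The centred share against BM was thus close to that of all genes. Pola1, Rfc2 and Chaf1b were the members called lower in AT than in BM under the authors' scale, centring, total count scaling and upper quartile scaling alike. Every other member called there on the authors' scale lost its call after centring and under upper quartile scaling. Against BL the direction was the opposite: in the authors' deposited table, 8 of 48 members were higher in AT and 0 lower, beside 4.01% of all tested genes higher and 2.51% lower, with medians of 1.03 and -0.11. Centred folds gave 10 of 48 members higher (4.39% of all tested genes).

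Few of these genes were called between the LSC of marrow and spleen and the normal marrow cells. In the authors' deposited table, 3 of 47 members were lower in BM than in NBM and 0 higher, beside 7.85% of all tested genes lower and 8.17% higher, a share near the background. Those 3 members were Cdt1, at a log2 fold change of -1.17 ± 0.42 (q = 0.0291), Gins1, at -1.25 ± 0.47 (q = 0.0386), and Tk1, at -1.13 ± 0.31 (q = 0.00308), in the authors' deposited table. SPL against NBM gave 0 of 47 members called by Cuffdiff in the authors' deposited table and 0 at an unadjusted p below 0.05, with 6.37% of all tested genes higher and 6.19% lower. SPL against BM gave 0 of 47 called by Cuffdiff in the authors' deposited table and 1 at an unadjusted p below 0.05, with 1.19% of all tested genes higher and 1.5% lower. The member folds ran from -0.77 to 0.86 between SPL and NBM and from -0.36 to 0.99 between SPL and BM in the authors' deposited table, with median implied standard errors of 0.43 in both comparisons. Small folds leaned to lower levels in BM. The median member fold was -0.30 in BM against NBM (37 of 47 below 0), beside -0.03 for all tested genes. In SPL against BM it was 0.40 (42 of 47 above 0), beside 0.12. In SPL against NBM it was 0.02 (27 of 47 above 0), beside 0.11. These leanings were not tested. SPL had the fewest estimated counts, and a q-value above the threshold does not show that the levels were equal.

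**Figure D2:**
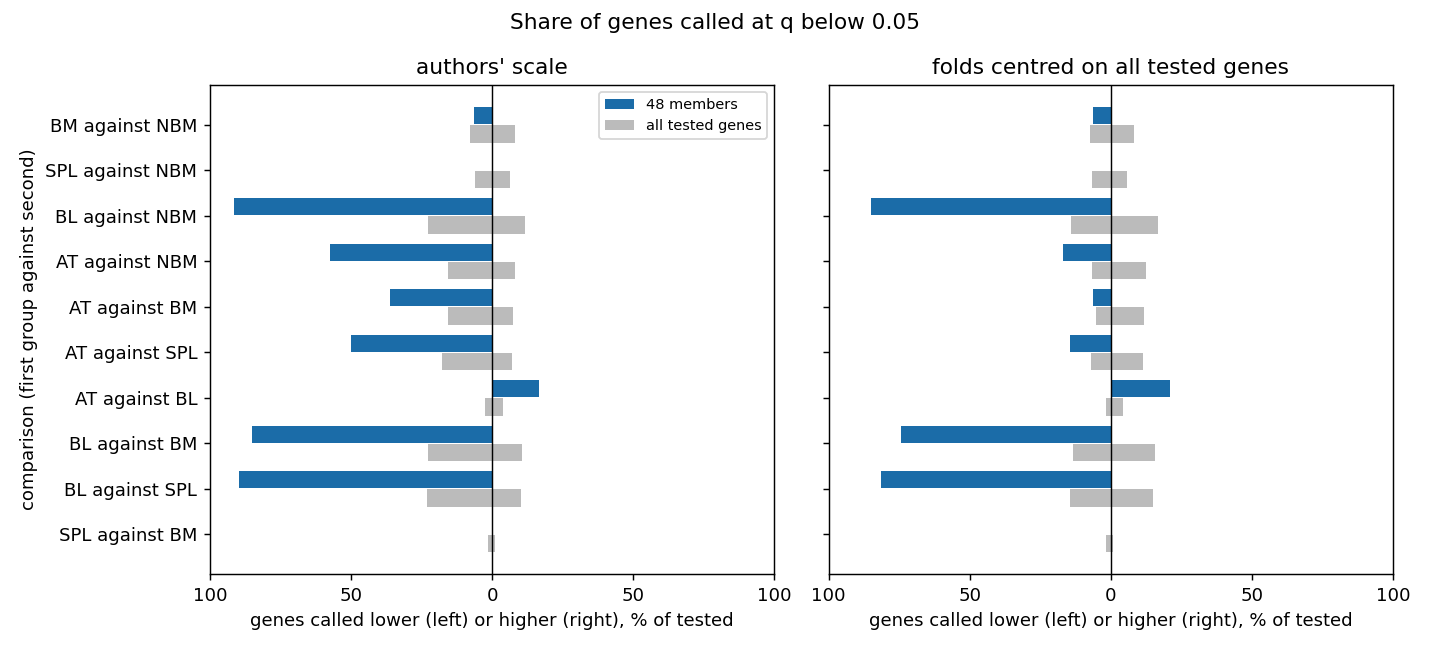
Share of tested genes called lower (bars to the left of 0) or higher (to the right), in percent, for the 48 members (blue) and all tested genes (grey) in the 10 comparisons, on the authors' scale (left panel) and with folds centred on the median of all tested genes (right panel). The 3 comparisons of BL keep the longest blue bars in both panels, at 40, 43 and 43 members on the authors' scale, while the bars of AT against BM, SPL and NBM shorten after centring.

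Origin licensing genes load the helicase, and 10 of the 11 were lower in BL than in BM in the authors' deposited table, the exception being Cdt1. The most abundant were Mcm3 and Mcm7. Mcm3 (mm10, chr1:20803014-20820213) had an FPKM of 56.0 in NBM, 45.7 in BM, 56.6 in SPL, 11.2 in BL and 22.7 in AT. Mcm7 (chr5:138164589-138171862) was at 55.2 in NBM, 35.9 in BM, 48.5 in SPL, 7.48 in BL and 16.2 in AT. For both subunits the upper bound in BL, 15.7 and 10.6, lay under the lower bound in BM, 31.8 and 25.2. Mcm2 (chr6:88883474-88898780) was at an FPKM of 25.5 in NBM, 21.6 in BM, 24.7 in SPL, 3.57 in BL and 8.63 in AT. The log2 fold change of Mcm2 was -2.60 ± 0.37 in BL against BM (q = 2.53e-10) and -1.33 ± 0.46 in AT against BM (q = 0.0239) in the authors' deposited table. AT against BL missed the threshold for Mcm2 on the authors' scale, at 1.27 ± 0.51 (q = 0.0544) in the authors' deposited table, and AT was called higher under centring, total count and upper quartile scaling. Under those scalings the Mcm2 call of AT against BM was lost. The 6 ring subunits form a complex in equal number, yet their transcript levels differed. Mcm6 was the lowest and Mcm3 the highest of Mcm2 to Mcm7 in each of the 5 groups, with a ratio of 7.33 in NBM, 9.28 in BM, 11.9 in SPL, 5.94 in BL and 5.67 in AT. Mcm6 (chr1:128331591-128359656) was at an FPKM of 7.64 in NBM, 4.93 in BM, 4.74 in SPL, 1.89 in BL and 4.01 in AT.

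**Figure D3:**
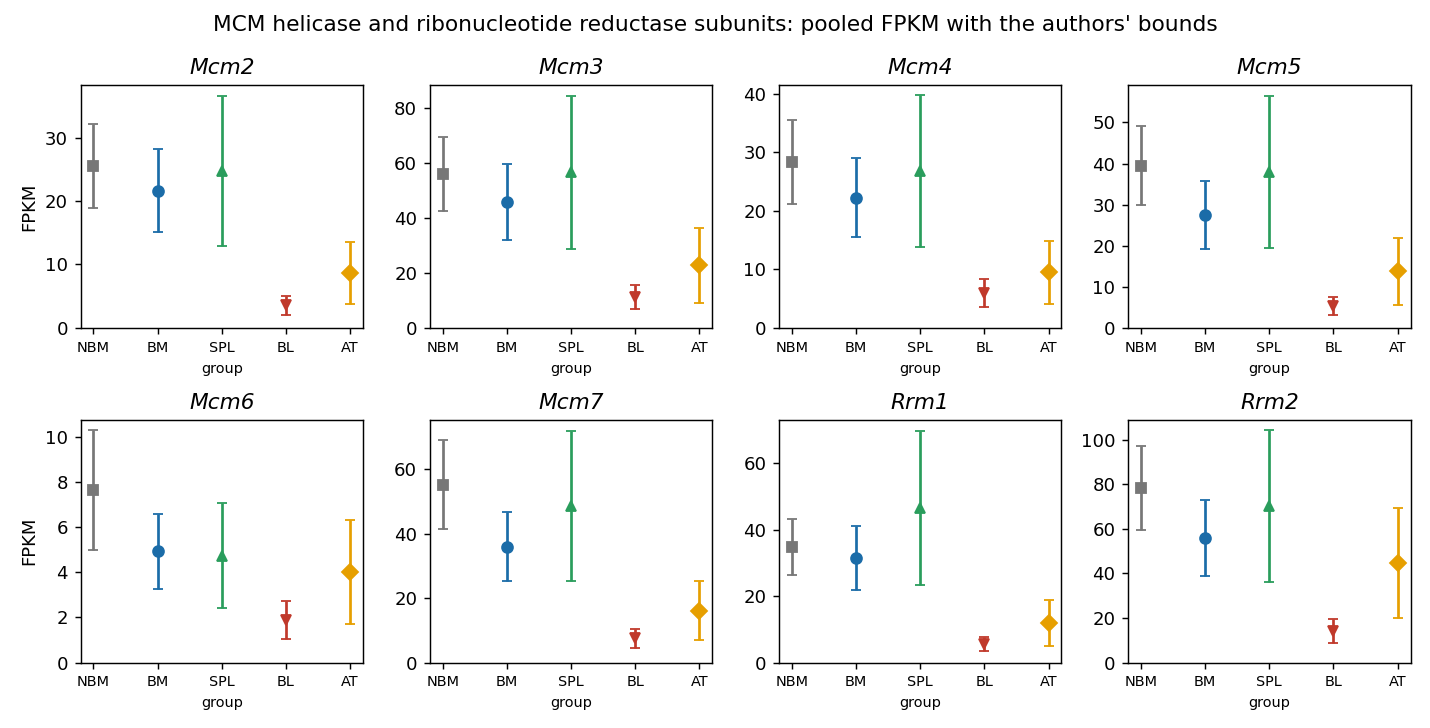
Pooled FPKM (linear axes from 0, one per gene) of the 6 MCM ring subunits and of the ribonucleotide reductase subunits Rrm1 and Rrm2 in the 5 groups, with bars for the authors' lower and upper bounds of 2 standard deviations. The BL bars lie below the BM bars in all 8 panels, and in AT Rrm2 stands at 44.6 beside 56.0 in BM while Rrm1 stands at 12.0 beside 31.5.

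Cdc6, Orc1 and Cdt1 are among the factors that place the ring on DNA. Cdc6 (chr11:98907889-98923942) had an FPKM of 8.73 in NBM, 6.33 in BM, 9.52 in SPL, 0.879 in BL and 3.85 in AT. BL was the outlying low group for Cdc6, with a log2 fold change of -2.85 ± 0.38 against BM (q = 1.47e-11) in the authors' deposited table. AT was above BL by 2.13 ± 0.51 for Cdc6 (q = 0.000464) and did not differ from BM past the threshold, at -0.72 ± 0.46 (q = 0.3), in the authors' deposited table. Orc1 (chr4:108579454-108614831), the largest subunit of the origin recognition complex, was at an FPKM of 2.12 in NBM, 1.93 in BM, 3.84 in SPL, 0.427 in BL and 0.888 in AT. Its difference between SPL and BM, 0.99 ± 0.43 in the authors' deposited table, had a q of 0.0868 and was the single member difference of that comparison with an unadjusted p below 0.05. Cdt1 (chr8:122568015-122573130) was at 1.93 in NBM, 0.862 in BM, 1.14 in SPL, 0.371 in BL and 0.848 in AT. The levels of Cdt1 in BM and AT lay side by side, and BL against BM just missed the threshold at -1.22 ± 0.48 (q = 0.0522) in the authors' deposited table. Gmnn (chr13:24751845-24761937), which encodes the CDT1 inhibitor geminin, was at an FPKM of 22.1 in NBM, 16.2 in BM, 22.3 in SPL, 5.54 in BL and 7.50 in AT. For geminin the 2 low groups were close, with AT at 0.44 ± 0.48 against BL (q = 0.605) in the authors' deposited table. Of the other members of this group, Mcm4 was lower in AT than in BM at -1.23 ± 0.47 (q = 0.0417) in the authors' deposited table. Mcm5 was higher in AT than in BL, at 1.38 ± 0.51 (q = 0.0386) in the authors' deposited table. Orc6 was called lower in BL than in BM, SPL and NBM and not called in the AT comparisons in the authors' deposited table.

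Because many of these genes are known E2F targets, the promoter windows of RefSeq (GRCm38.p6, the assembly of mm10) were searched for 4 forms of the E2F motif, TTTGGCGC, TTTGCCGC, TTTCGCGC and TTTCCCGC, on both strands. A window runs from 250 bases before a start used for a gene to 50 after it, and 39 of the 48 members had at least 1 window. No window was matched for Gmnn, Mcm4, Gins1, Gins2, Gins4, Prim2, Pole, Rfc2 and Ccne2. A match was present in 14 of the 39 members, or 35.9%, beside 2.6% of 27025 genes in the table and 4.68% of 6972 genes with an FPKM of 1 or more in some group. By role, 7 of 9 licensing genes held a match, and 0 of 7 nucleotide synthesis genes did. The members with a match were Orc1, Cdc6, Cdt1, Mcm3, Mcm5, Mcm6, Mcm7, Gins3, Pola1, Pold1, Pole2, Rfc3, Lig1 and Cdk2. There were 20 matches in the 46 windows of the members, and 12 lay within 100 bases of the start. The bases before the start are printed for 4 licensing genes with a match there, and for Cdk2, a gene with a match that was called in none of the comparisons. Each line gives 250 bases from 5′ to 3′ on the strand of the gene, with the E2F matches in capitals. It ends at the last base before the start used for that window. For Cdc6 that start lies inside the gene, whose deposited interval begins at 98907889, so the printed bases and their match lie within the gene. The RefSeq genes of Orc1 and Mcm5 also begin before the start used, at 108575705 and 75109468.
Cdc6, chr11:98907901-98908150, plus strand: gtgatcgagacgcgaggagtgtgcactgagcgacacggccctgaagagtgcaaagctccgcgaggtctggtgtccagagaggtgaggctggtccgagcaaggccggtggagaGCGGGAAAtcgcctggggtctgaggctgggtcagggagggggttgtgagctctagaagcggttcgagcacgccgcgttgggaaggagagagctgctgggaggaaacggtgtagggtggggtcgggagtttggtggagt
Orc1, chr4:108579204-108579453, plus strand: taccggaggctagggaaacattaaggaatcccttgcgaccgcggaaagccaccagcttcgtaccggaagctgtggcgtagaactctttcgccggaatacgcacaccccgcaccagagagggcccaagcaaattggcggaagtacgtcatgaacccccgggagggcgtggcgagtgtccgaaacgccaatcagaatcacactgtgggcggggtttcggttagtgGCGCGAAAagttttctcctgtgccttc
Mcm5, chr8:75109259-75109508, plus strand: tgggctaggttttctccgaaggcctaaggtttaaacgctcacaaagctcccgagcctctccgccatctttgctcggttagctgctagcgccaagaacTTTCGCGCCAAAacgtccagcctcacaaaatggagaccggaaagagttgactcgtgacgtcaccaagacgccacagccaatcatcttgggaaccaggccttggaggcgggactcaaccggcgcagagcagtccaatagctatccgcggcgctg
Mcm6, chr1:128359706-128359955, minus strand: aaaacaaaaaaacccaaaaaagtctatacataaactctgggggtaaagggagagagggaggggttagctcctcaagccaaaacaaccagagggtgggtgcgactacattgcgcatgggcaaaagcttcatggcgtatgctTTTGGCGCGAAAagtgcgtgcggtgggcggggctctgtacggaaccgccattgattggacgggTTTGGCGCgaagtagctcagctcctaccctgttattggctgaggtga
Cdk2, chr10:128705052-128705301, minus strand: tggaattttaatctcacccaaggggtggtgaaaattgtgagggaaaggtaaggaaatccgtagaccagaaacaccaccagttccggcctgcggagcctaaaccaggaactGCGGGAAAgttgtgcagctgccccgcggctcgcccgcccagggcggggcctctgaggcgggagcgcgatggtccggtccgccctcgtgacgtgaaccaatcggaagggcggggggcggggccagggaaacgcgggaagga

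In Mcm5 and in Mcm6 a pair of matches on opposite strands overlapped. Counted from the start used for the window, their first bases were at -153 and -149 in Mcm5 and at -110 and -106 in Mcm6. Mcm6 held another at -47. The matches of Cdc6 and Cdk2 began at -138 and -140, and that of Orc1 at -27. In the authors' deposited table BL was lower than BM for 11 of 14 members with a match and for 20 of 24 without, beside 22.8% of all tested genes. The median log2 fold changes were -2.10 and -2.19. AT was higher than BL for 2 of 14 members with a match and for 6 of 25 without in the authors' deposited table, beside 4.01% of all tested genes. AT was lower than NBM for 10 of 14 with a match and 11 of 24 without in the authors' deposited table. It was lower than BM for 3 of 14 and 10 of 24. Of all tested genes, 15.5% were lower in each of these 2 comparisons, and the 3 of 14 lay near that background. The shares with and without a match leaned in opposite directions against NBM and against BM, and the differences were not tested. The CCAAT box was found in 56.4% of the matched members and 41.1% of all genes in the table. The CHR motif of mitotic promoters, TTTGAA on either strand, was found in 17.9% of the members, 20.2% of all genes and 66.7% of 18 mitotic genes. By role it was found in 4 of 5 helicase activation genes and in 1 or 0 genes of each other role. These matches are letters in a window, and binding was not measured.

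**Figure D4:**
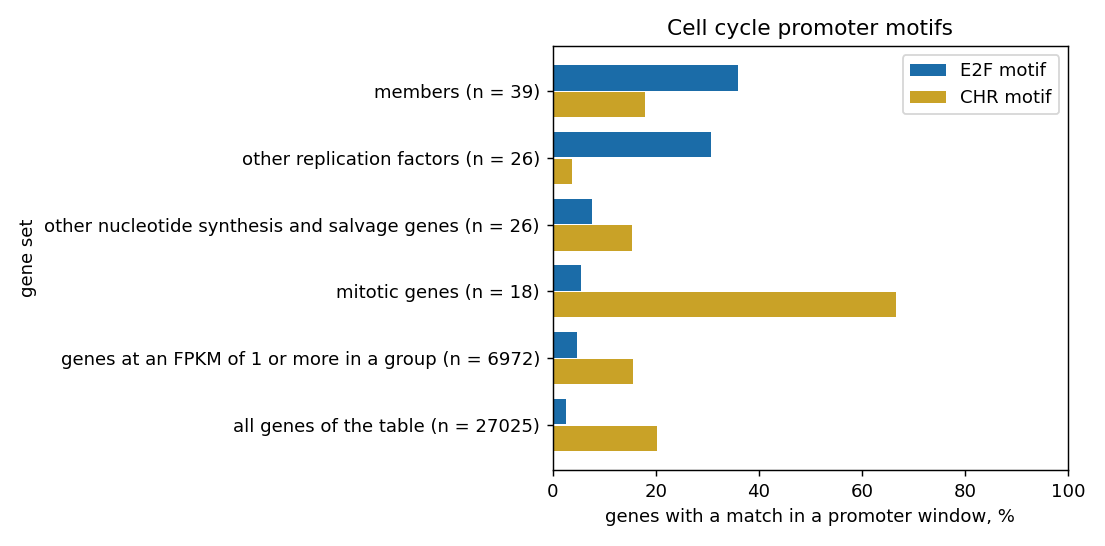
Share of genes, in percent, with an E2F motif (blue) or a CHR motif (gold) in a RefSeq promoter window, for the members, related gene lists, genes at an FPKM of 1 or more and all genes of the table, with the number of genes that had a window. The E2F bar of the members reaches 35.9%, that of the other replication factors 30.8% and that of all genes 2.6%. The CHR bar is longest for the mitotic genes at 66.7%.

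Helicase activation and firing genes turn the loaded ring into a moving fork, and 7 of 8 were lower in BL than in BM in the authors' deposited table. Mcm10 (chr2:4990724-5012791), a factor that activates the helicase, was at an FPKM of 6.82 in NBM, 4.82 in BM, 6.43 in SPL, 0.550 in BL and 1.58 in AT. Its log2 fold change of -3.13 ± 0.38 in BL against BM (q = 5.49e-14) was the largest of the 47 tested members in the authors' deposited table. On the authors' scale Mcm10 was an intermediate in AT, lower than BM at -1.61 ± 0.47 (q = 0.00581) and higher than BL at 1.52 ± 0.51 (q = 0.0192) in the authors' deposited table. The Mcm10 call against BM was lost after centring and under upper quartile scaling, while the call against BL stayed. Cdc45 (chr16:18780447-18811972), a helicase subunit, was at an FPKM of 9.63 in NBM, 6.16 in BM, 8.67 in SPL, 1.00 in BL and 3.98 in AT. AT exceeded BL by 1.99 ± 0.62 for Cdc45 (q = 0.0105) and was not called against BM, at -0.63 ± 0.56 (q = 0.504), in the authors' deposited table. Cdc7, the kinase that phosphorylates the ring, was higher in AT than in BL at 1.74 ± 0.63 (q = 0.0304), and its partner Dbf4, at 0.89 ± 0.56 (q = 0.287), missed the threshold in the authors' deposited table. Gins2 (chr8:120488866-120589075) was at an FPKM of 16.9 in NBM, 12.9 in BM, 16.6 in SPL, 1.88 in BL and 5.13 in AT. The deposited interval of Gins2 extends 92400 bases beyond the RefSeq gene, so its value may hold reads of a neighbor.

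The 4 GINS subunits act as 1 complex, and the lowest group was BL for Gins1, Gins2 and Gins4 and AT for Gins3. Gins3 was at an FPKM of 3.14 in NBM, 2.17 in BM, 2.13 in SPL, 1.31 in BL and 1.02 in AT. For Gins3 no call was made in BL against BM, at -0.73 ± 0.40 (q = 0.199), nor in AT against BL, at -0.36 ± 0.50 (q = 0.706), in the authors' deposited table. Gins4 ranged only from 2.86 in BL to 6.24 in BM, and was lower in BL than in BM at -1.13 ± 0.38 (q = 0.019) in the authors' deposited table. Gins1 was at an FPKM of 8.57 in NBM, 3.61 in BM, 5.33 in SPL, 1.25 in BL and 2.23 in AT. NBM was thus the high group for Gins1, and BL was below BM at -1.53 ± 0.54 (q = 0.0249) in the authors' deposited table.

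Polymerase and primase genes synthesize the new strands, and on the authors' scale they were the role with the most calls in AT against BM. With centred folds or upper quartile scaling 1 of the 8, Pola1, was called there. In the authors' deposited table, 6 of 8 were lower there, and against BL 0 of 8 were higher in AT by Cuffdiff's q and 1 at an unadjusted p below 0.05. Pola1 (chrX:93304766-93632155), the catalytic subunit of the polymerase that starts each strand, was at an FPKM of 3.04 in NBM, 2.67 in BM, 3.35 in SPL, 0.466 in BL and 0.757 in AT. AT was at 28.4% of the BM level for Pola1, the lowest of the 48 members. The log2 fold change of Pola1 in AT was -1.82 ± 0.48 against BM (q = 0.00186) and 0.70 ± 0.51 against BL (q = 0.386) in the authors' deposited table. Pole2 (chr12:69201779-69228190), a subunit of the leading strand polymerase epsilon, was at 2.34 in NBM, 1.88 in BM, 2.65 in SPL, 0.322 in BL and 0.632 in AT. Its catalytic partner Pole was lower in AT than in BM at -1.66 ± 0.49 (q = 0.00614) in the authors' deposited table. Pold2 (chr11:5861866-5878256), a subunit of the lagging strand polymerase delta, had the highest mean level of the role, at an FPKM of 12.9 in NBM, 11.8 in BM, 17.9 in SPL, 2.59 in BL and 4.60 in AT. The deposited interval of Pold2 extends 10314 bases beyond the RefSeq gene. Pold1, the catalytic subunit, fell in AT against BM by 1.20 ± 0.45 (q = 0.0378) in the authors' deposited table. Prim1 (chr10:128015215-128030030), the catalytic primase, was at 11.2 in NBM, 8.80 in BM, 13.5 in SPL, 1.92 in BL and 4.49 in AT. Its partner Prim2 was lower in AT than in BM, at -1.30 ± 0.47 (q = 0.0312), and Prim1 was not called, at -0.97 ± 0.45 (q = 0.116), in the authors' deposited table. Pola2, the regulatory subunit beside Pola1, was the gene of this role without a call. It was at an FPKM of 4.98 in NBM, 3.29 in BM, 4.89 in SPL, 2.43 in BL and 3.91 in AT, and was called in none of the 10 comparisons of the authors' deposited table. BL was its lowest group too. Pola2 was lower in BL than in NBM at an unadjusted Cuffdiff p below 0.05, and was called there when q-values were adjusted within that comparison alone.

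Clamp, clamp loader, RPA and flap ligation genes complete and join the strands, and 7 of 8 tested were lower in BL than in BM in the authors' deposited table. Fen1 (chr19:10199132-10203943), the flap nuclease of the lagging strand, was at an FPKM of 59.4 in NBM, 46.3 in BM, 60.8 in SPL, 10.2 in BL and 19.0 in AT. The authors' deposited table marked the Fen1 test as failed in 7 of the comparisons, and in the 3 that were tested BL was below SPL at -2.57 ± 0.53 (q = 2.84e-05). Pcna (chr2:132249286-132253180), the sliding clamp, was at an FPKM of 48.4 in NBM, 38.2 in BM, 52.6 in SPL, 15.8 in BL and 26.8 in AT. Pcna was lower in BL than in BM by a log2 fold change of -1.27 ± 0.35 (q = 0.00289), and AT was not called against BM, at -0.51 ± 0.43 (q = 0.467), in the authors' deposited table. Rfc2 (chr5:134582690-134598328), a clamp loader subunit, was at 40.2 in NBM, 55.1 in BM, 57.7 in SPL, 17.2 in BL and 16.3 in AT. Rfc2 was low in AT and BL alike, with -1.76 ± 0.45 for AT against BM (q = 0.00109) and -0.08 ± 0.48 for AT against BL (q = 0.95) in the authors' deposited table. For Rpa1, the large subunit of the single-strand binding protein RPA, AT was at 12.6 and BL at 12.5, against an FPKM of 33.6 in BM. Rpa2 was lower in AT than in BM at -1.33 ± 0.43 (q = 0.0133) in the authors' deposited table. Rfc4 (chr16:23107479-23127730) was at 20.0 in NBM, 17.7 in BM, 27.6 in SPL, 2.74 in BL and 6.36 in AT, and was called in none of the comparisons of the authors' deposited table. Its lower bound was 0 in SPL, BL and AT, its median implied standard error was 1.56, and its deposited interval extends 6469 bases beyond the RefSeq gene. Rfc3, Rfc5 and Lig1, the replicative ligase, were lower in BL than in BM and not called in AT against BM in the authors' deposited table. The interval of Lig1 extends 18209 bases beyond its RefSeq gene.

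The chromatin assembly factor CAF-1 deposits histones behind the fork. Its subunit Chaf1b (chr16:93883901-93906106) was at an FPKM of 11.2 in NBM, 10.2 in BM, 12.9 in SPL, 2.19 in BL and 3.04 in AT. Chaf1a (chr17:56040416-56068026) was at 1.47 in NBM, 0.956 in BM, 1.14 in SPL, 0.368 in BL and 0.776 in AT. Both were lower in BL than in BM in the authors' deposited table. AT against BM gave -1.75 ± 0.46 for Chaf1b (q = 0.00166) and -0.30 ± 0.51 for Chaf1a (q = 0.769) in the authors' deposited table, and a difference between the subunits was not tested.

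Nucleotide synthesis genes included the most abundant members, and 6 of 7 were lower in BL than in BM in the authors' deposited table. Impdh2 (chr9:108560501-108565566), the rate-limiting enzyme of guanine nucleotide synthesis, was at an FPKM of 72.5 in NBM, 77.9 in BM, 109 in SPL, 15.6 in BL and 24.5 in AT. The log2 fold change of Impdh2 was -2.32 ± 0.36 in BL against BM (q = 7.45e-09) and -1.67 ± 0.47 in AT against BM (q = 0.00411) in the authors' deposited table. Ribonucleotide reductase makes deoxyribonucleotides and needs both of its subunits. Rrm1 (chr7:102441695-102469771), the large subunit, was at an FPKM of 34.9 in NBM, 31.5 in BM, 46.7 in SPL, 5.53 in BL and 12.0 in AT. Rrm2 (chr12:24708254-24714146), the small subunit made in S phase, was at 78.3 in NBM, 56.0 in BM, 70.2 in SPL, 14.2 in BL and 44.6 in AT. Both subunits were low in BL, while AT lay between BL and BM for both, nearer to BM for Rrm2. In the authors' deposited table AT against BM was -1.39 ± 0.47 for Rrm1 (q = 0.02) and -0.33 ± 0.45 for Rrm2 (q = 0.705). AT against BL was 1.12 ± 0.50 for Rrm1 (q = 0.0975) and 1.66 ± 0.49 for Rrm2 (q = 0.00565) in the authors' deposited table, and whether the subunits differ was not tested. Under total count scaling AT was called above BL for Rrm1 too. The Rrm1 call of AT against BM was lost after centring and under total count and upper quartile scaling.

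Thymidylate has a de novo and a salvage route, and both were low in BL. Tyms (chr5:30058200-30073625), thymidylate synthase, was at an FPKM of 8.48 in NBM, 9.87 in BM, 13.0 in SPL, 1.53 in BL and 3.76 in AT. It was lower in AT than in BM, at -1.39 ± 0.44 (q = 0.0119), and higher in AT than in BL, at 1.30 ± 0.49 (q = 0.039), in the authors' deposited table. The Tyms call against BM was lost after centring and under total count and upper quartile scaling, while the call against BL stayed. Tk1 (chr11:117815519-117839908), the salvage kinase, was at 27.4 in NBM, 12.5 in BM, 17.2 in SPL, 2.15 in BL and 5.25 in AT. Its highest level was 12.8 times its lowest, the widest ratio among the members. BL against NBM was at -3.67 on the log2 scale for Tk1 and AT was at -2.39 ± 0.48 against NBM (q = 1.4e-05) in the authors' deposited table, though the Tk1 interval extends 13821 bases beyond the RefSeq gene. Ctps (chr4:120539868-120570276), CTP synthase, was at an FPKM of 3.90 in NBM, 3.92 in BM, 4.23 in SPL, 0.744 in BL and 1.74 in AT. Ctps fell in BL against BM by 2.40 ± 0.39 (q = 5.72e-08) in the authors' deposited table. Dut, which removes dUTP, was at 0.766 in NBM, 0.632 in BM, 0.827 in SPL, 0.258 in BL and 0.510 in AT, and BL against BM was -1.29 ± 0.57 (q = 0.0875) in the authors' deposited table.

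Cyclin E and its kinase were the role with the fewest calls. Ccne1 (chr7:38097984-38107490) was at an FPKM of 1.08 in NBM, 0.616 in BM, 1.14 in SPL, 0.273 in BL and 0.779 in AT. For Ccne1 the AT level was 126% of the BM level, the highest of the 48 members, and AT was above BL at 1.51 ± 0.58 (q = 0.0436) in the authors' deposited table. Ccne2 (chr4:11191354-11254259) was at 4.10 in NBM, 4.39 in BM, 4.45 in SPL, 0.784 in BL and 1.81 in AT. BL against BM was -2.49 ± 0.49 for Ccne2 (q = 8.84e-06) and -1.18 ± 0.51 for Ccne1 (q = 0.0819) in the authors' deposited table. The Ccne2 interval extends 49480 bases beyond its RefSeq gene. Cdk2 (chr10:128697939-128705051) was at an FPKM of 6.96 in NBM, 7.56 in BM, 5.89 in SPL, 4.71 in BL and 5.37 in AT. It had the narrowest range of the members, the highest level being 1.60 times the lowest, and BL against BM was -0.68 ± 0.41 (q = 0.263) in the authors' deposited table. In all, 7 tested members missed the threshold in BL against BM, in the authors' deposited table, namely Cdt1, Gins3, Pola2, Rfc4, Dut, Ccne1 and Cdk2.

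Set against BM, the level in AT was a median of 45.5% over the 48 members and ran from 28.4% for Pola1 to 126% for Ccne1. The level in BL was a median of 23.6% of BM and ran from 11.4% for Mcm10 to 74.0% for Pola2. By role the median AT level was 39.8% of BM for polymerases and primase, 40.9% for clamp, loader, RPA and ligation, 42.0% for nucleotide synthesis, 47.0% for helicase activation, 49.7% for licensing, 55.5% for chromatin assembly and 71.1% for cyclin E and CDK2. The calls of AT against BM in the authors' deposited table fell on 6 of 8 polymerase and primase genes, 4 of 7 nucleotide genes, 3 of 8 tested clamp and ligation genes, 2 of 11 licensing genes, 1 of 8 helicase activation genes and 1 of the 2 CAF-1 genes, beside 15.5% of all tested genes. The shares of the licensing and helicase activation genes lay near that background, and with centred folds 1 polymerase gene, 1 clamp gene and 1 CAF-1 gene were called, beside 5.11% of all tested genes. The 8 calls of AT against BL in the authors' deposited table were Mcm10, Cdc45 and Cdc7 of helicase activation, Cdc6 and Mcm5 of licensing, Rrm2 and Tyms of nucleotide synthesis, and Ccne1. Those 8 were called under all 4 scalings. Adjusting within the comparison kept Cdc6, Cdc45 and Rrm2, and a q below 0.01 kept Cdc6 and Rrm2. Both comparisons share the AT libraries, and a difference between roles was not tested.

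**Figure D5:**
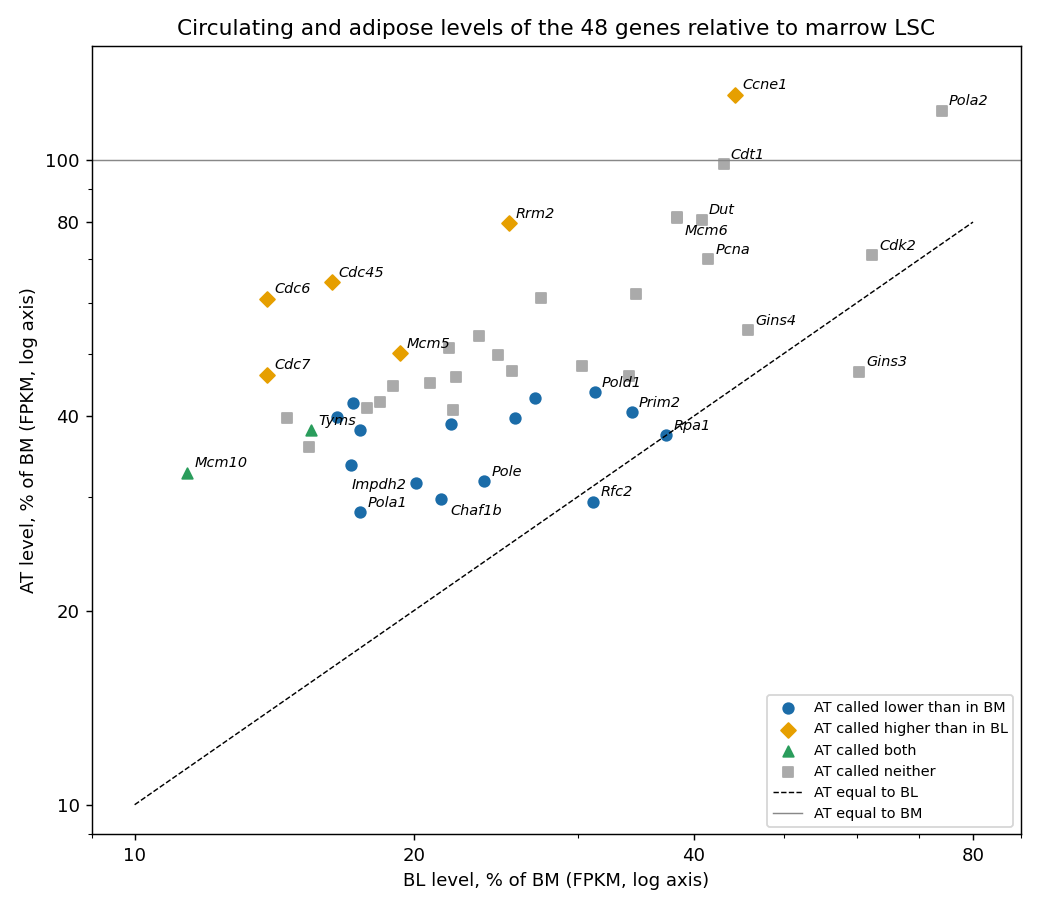
Level in AT (y axis) against level in BL (x axis), each as a percentage of the BM level in FPKM on log axes, for the 48 genes; color and shape give the AT calls against BM and against BL. Nearly all points lie above the dashed line of equal AT and BL levels and below the grey line at 100%, with Ccne1 at 126% and Pola2 at 119% above it and Rfc2 and Gins3 below the dashed line.

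Other genes of the same pathways were examined as lists. Of 30 further replication factors, 20 of 29 tested were lower in BL than in BM and 0 higher in the authors' deposited table, and 10 of 28 were lower in AT than in BM, beside 22.8% and 15.5% of all tested genes. Asf1b, a histone chaperone, was at an FPKM of 34.4 in NBM, 26.2 in BM, 42.8 in SPL, 5.53 in BL and 13.1 in AT. Tipin, a fork protection factor, was lower in AT than in BM at -1.44 ± 0.44 (q = 0.00877) in the authors' deposited table. AT was above BL for 3 of the 28 in the authors' deposited table, namely Asf1b, Atad5 and Ticrr. After centring, 16 of 29 were lower in BL (13.5% of all tested genes) and 1 of 28 in AT (5.11%), both against BM, so the AT share was not above the background.

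Of 30 further nucleotide synthesis and salvage genes, 21 were lower in BL than in BM and 14 lower in AT than in BM in the authors' deposited table. The shares of all tested genes were 22.8% and 15.5%. Centring left 18 and 6 of the list, beside 13.5% and 5.11% of all tested genes. Dctd, which makes dUMP from dCMP, was at an FPKM of 6.37 in NBM, 5.93 in BM, 9.75 in SPL, 0.679 in BL and 0.828 in AT. Dctd fell in AT against BM by 2.84 ± 0.60 (q = 4.8e-05) in the authors' deposited table. The 3 genes higher in AT than in BL, Mthfd2, Shmt2 and Shmt1, are enzymes of one-carbon metabolism, which supplies purine and thymidylate synthesis. Of all tested genes, 4.01% were higher in AT than in BL. Mthfd2 was at an FPKM of 31.8 in NBM, 32.2 in BM, 25.0 in SPL, 7.57 in BL and 23.5 in AT, and AT was above BL at 1.63 ± 0.49 (q = 0.00696) in the authors' deposited table. A gene of this list called in the other direction was Samhd1. This enzyme, which breaks down deoxyribonucleotides and was chosen after its values were seen, was at 10.2 in NBM, 7.32 in BM, 8.10 in SPL, 50.1 in BL and 18.1 in AT. BL was above BM for Samhd1 at 2.77 ± 0.39 (q = 1.75e-10) in the authors' deposited table.

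Among 13 E2F and pocket protein genes, 5 were lower and 1 higher in BL than in BM in the authors' deposited table. The shares of all tested genes were 22.8% and 10.5%, so the share called higher was not above the background. E2f8, a repressor of the family, was at an FPKM of 5.07 in NBM, 10.4 in BM, 13.8 in SPL, 0.674 in BL and 2.38 in AT. Unlike the members, E2f8 was higher in BM than in NBM, at 1.04 ± 0.32 (q = 0.00823), and in SPL than in NBM, at 1.44 ± 0.43 (q = 0.00683), in the authors' deposited table. E2f2, an activator, was high in the groups where the members were low, at 1.71 in NBM, 1.06 in BM, 1.15 in SPL, 3.81 in BL and 2.90 in AT. E2f2 was above BM at 1.84 ± 0.38 in BL (q = 3.69e-05) and at 1.45 ± 0.45 in AT (q = 0.0106) in the authors' deposited table. Tfdp1, the binding partner of the E2F proteins, fell in BL against BM by 2.09 ± 0.36 (q = 3.34e-07) in the authors' deposited table. Of 20 mitotic genes, 18 were lower in BL than in BM, 14 lower in AT than in BM and 10 higher in AT than in BL in the authors' deposited table. The shares of all tested genes were 22.8%, 15.5% and 4.01%. With centred folds the mitotic counts were 18, 5 and 10, beside 13.5%, 5.11% and 4.39% of all tested genes.

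Markers of mature myeloid cells were higher in BL, and in part in AT, than in BM, and differed less uniformly from NBM. The 8 macrophage markers summed to an FPKM of 101 in NBM, 79.8 in BM, 56.0 in SPL, 295 in BL and 152 in AT. Emr1, Cd68 and Csf1r were the largest in BL and AT, while in NBM C1qb, at 25.5, stood above Csf1r, at 22.4, and Emr1, at 4.84. The 6 mature neutrophil markers summed to 87.0 in NBM, 47.8 in BM, 31.0 in SPL, 182 in BL and 89.0 in AT. In BL against BM, 4 of 7 tested macrophage markers (Emr1, Csf1r, C1qb and Cd68) and 5 of 6 neutrophil markers (Cxcr2, Mmp8, Mmp9, Retnlg and Il1r2) were higher in the authors' deposited table. In AT against BM, 3 of 7 macrophage markers were higher in the authors' deposited table, and the neutrophil markers had 0 of 6 called by Cuffdiff and 1 at an unadjusted p below 0.05. Of all tested genes, 10.5% were higher in BL and 7.24% in AT, both against BM. Against NBM the authors' deposited table called 3 of 8 macrophage markers higher and 3 lower in BL, and 1 higher (Emr1) and 4 lower (C1qa, C1qb, Mrc1 and Timd4) in AT. Of the 6 neutrophil markers, 3 were higher in BL than in NBM and 1, Csf3r, was lower in AT than in NBM in the authors' deposited table. Against NBM, 11.5% of all tested genes were higher and 22.9% lower in BL, and 7.94% and 15.5% in AT. The 11 stroma and vessel markers summed to 42.6 in AT and to between 9.69 and 24.4 in the other groups, and 8 of 10 tested were higher in AT than in BM in the authors' deposited table. Pecam1 made up most of the sum in each group but AT, at an FPKM of 12.8 in NBM, 10.8 in BM, 7.94 in SPL, 24.0 in BL and 12.9 in AT. Dcn was at 21.0 in AT and at 0.00676 to 0.0282 in the other groups, and Sparc at 4.55 beside 0.0535 to 0.486. Levels were highest outside AT for Col1a2 (SPL), Pecam1 (BL) and Cdh5, Kdr and Tek (NBM). The stem and progenitor markers summed to 351 in NBM, 262 in BM, 331 in SPL, 326 in BL and 177 in AT. Ly6a and Cd48 were the largest of them in each group. Ly6a was at an FPKM of 105 in BM and 231 in BL, while Cd34 was at 24.3 and 7.92 and Meis1 at 12.1 and 5.01. At an unadjusted Cuffdiff p below 0.05, 1 of 7 tested stem and progenitor markers was higher and 3 were lower in BL than in BM. In AT against BM, 0 of 7 were higher and 5 lower. Against NBM, 1 of 8 was higher and 4 lower in BL, and 1 was higher and 6 lower in AT. The share of all tested genes at that unadjusted p was not counted. B cell markers summed to 21.1 in NBM and 1.46 to 14.0 in the LSC groups. Of 7 T and NK cell markers, Nkg7 was at an FPKM of 110 in NBM, 203 in BM, 329 in SPL, 194 in BL and 130 in AT. The T cell genes went the other way, with Cd3e at 14.9 in NBM and 0.210 to 1.98 in the LSC groups, and 5 of 7 markers were lower than NBM in BM and SPL and 6 of 7 in BL and AT in the authors' deposited table. The hemoglobin gene Hba-a1, which has no entry of that name in the authors' comparison tables, was at an FPKM of 52.4 in NBM, 414 in BM, 521 in SPL, 1952 in BL and 520 in AT, and Hbb-b1 was at 38.9, 364, 307, 421 and 154. The part of these other cells in the levels of the replication genes was not tested.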

How the data were processed

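Qiagen RNeasy Plus columns gave the RNA, and libraries used Clontech SMARTer and Illumina Nextera XT chemistry, per the labels' protocols. Trimmomatic 0.32, Cufflinks 2.0.2 and Cuffdiff on mm10 are named in the submitters' processing notes; the aligner, the annotation and the strand setting of the counting were not given in the sources used here. Each gene has 1 FPKM, with its lower and upper bounds, and 1 estimated count per group, pooled by the authors. For each of 10 comparisons the authors deposited a log2 fold change and a test statistic, read as scores because untested genes hold placeholders, and a p-value and a q-value. Their q-values matched Benjamini-Hochberg values computed across the 10 comparisons together to within 1.703e-06. A count test per library had no input, so a gene was called from the authors' q below 0.05. The standard error was the fold divided by the test statistic, and rescaled folds were tested with it and readjusted over all tests after a check on simulated data. Alternatives were centring, total count and upper quartile scaling, a q of 0.01, adjustment within a comparison, a minimum FPKM of 1 and a pseudocount of 1. Python 3.11.15, pandas 2.3.3, numpy 2.4.6 and scipy 1.17.1 were used. The members, the roles and the other lists were chosen with earlier results of these data known. In each role the 2 members with the highest mean FPKM and the 2 with the widest ratio between groups were given in every group, with Rrm2, Pcna, Mcm2, Cdc6, Cdt1, Gmnn, Ccne1, Ccne2, Impdh2, Ctps and the exceptions; of other lists, up to 3 called genes with the smallest q. Promoter windows came from RefSeq.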

Additional observations from a re-analysis of the deposited data

How the results depend on the processing

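No paired analysis was possible because the values used here were 1 pooled value per group, which also leaves no library to leave out. No called direction turned under any of the alternatives run. The median log2 fold of the members in SPL against NBM, where Cuffdiff called none, was 0.02 and turned negative under the scalings, at -0.10 after centring, -0.26 under total count and -0.13 under upper quartile scaling. For members called, AT against BM gave 17, and 3 after centring, 6 under total count scaling, 3 under upper quartile scaling and 6 at a q below 0.01. AT against SPL gave 24, and 7, 6, 4 and 12 under the same settings. AT against NBM gave 27, and 8 after centring and 8 under upper quartile scaling. AT against BL gave 8, and 15 under total count scaling, 2 at a q below 0.01 and 3 when adjusted within the comparison. BM against NBM gave 3, and 1 at a q below 0.01. With log2(FPKM + 1) the median log2 fold of the members was -1.82 in BL against NBM, -1.57 in BL against BM and -1.85 in BL against SPL. Upper quartile scaling moved it to -0.91 in AT against SPL and -1.87 in BL against SPL. The counts of BL against NBM, BM and SPL stayed within 1.5 times under all settings. Depth limits the low members: Rfc5, Ccne1, Pole2 and Dut had the fewest estimated counts in BL, from 33.6 to 44.7.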

Other observations

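Some replication factors outside the 48 genes showed smaller differences between groups, and these were chosen after their values were seen. Pold4, the small accessory subunit of polymerase delta, was at an FPKM of 6.68 in NBM, 6.53 in BM, 5.77 in SPL, 6.80 in BL and 4.80 in AT. Its log2 fold change in BL against BM was 0.06 ± 0.39 (q = 0.956) in the authors' deposited table. Mcmbp, which binds the MCM ring outside chromatin, was at 6.47 in NBM, 4.82 in BM, 5.24 in SPL, 4.54 in BL and 4.59 in AT. Dna2, a nuclease of flap processing and break repair, was at 4.49 in NBM, 3.19 in BM, 3.74 in SPL, 3.83 in BL and 2.21 in AT, with 0.26 ± 0.37 in BL against BM (q = 0.707) in the authors' deposited table.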
